A study of Rattus norvegicus with 6 samples.

Results

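The circadian clock genes examined here are the 10 genes named Arntl, Clock, Per1, Per2, Per3, Cry1, Cry2, Nr1d1, Nr1d2 and Dbp in the deposited tables. They were chosen by name, as the core loop of the clock, the Rev-erb receptors and an output gene, out of 18923 genes in each table. RNA-Seq was performed on primary chondrocytes of wild-type, 24-hour-old female Sprague-Dawley rats, used at passage 1 or 2 after collagenase digestion. All 6 samples were grown in high-glucose medium with serum and antibiotics. In 3 of them, the RA group, all-trans retinoic acid (RA) was added at 1 μM and the cells were taken after 24 h, and the other 3, the CON group, went without it over the same time. The samples are described as independent, without saying whether they came from separate animals, and no vehicle is named for CON, so the p-values measure the spread between these samples only. Total counts were between 29370025 and 38007486 per sample. CON sample 1 stood apart from the other CON samples over the genes tested, with a Pearson correlation of log2(CPM + 1) of 0.990 with CON sample 2 and 0.988 with CON sample 3, where CON samples 2 and 3 reached 0.996 and the RA samples 0.995 with each other. CON sample 3 correlated more closely with RA sample 2 (0.990) than with CON sample 1, so the values without CON sample 1 are given beside each clock gene. The label "chondrocyte" was borne out by the 10 marker genes of cartilage matrix and identity, whose summed FPKM (reads scaled by gene length and by the sample's total) was 8279 to 10359.8 in CON and 5302 to 5654 in RA. Of these markers, 9 were lower in RA as differentially expressed genes (DEGs, by the thresholds given with the test), against 2.29% of all genes in that direction, and Sox9 was the exception.

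Most cells of a mammal carry a clock built from a transcriptional loop. BMAL1 (encoded by Arntl) and CLOCK form a pair that switches on genes through E-boxes, among them the Per and Cry genes, whose proteins then return to block the pair. The receptors REV-ERBα and REV-ERBβ (Nr1d1 and Nr1d2) are made in the same wave and repress Arntl, while DBP, also driven through E-boxes, carries the rhythm to output genes with D-boxes. Cartilage has such a clock, and deletion of Bmal1 in mouse chondrocytes is known to lead to loss of cartilage. Retinoid receptors have been reported to bind CLOCK and its paralog NPAS2, and RA itself acts through nuclear receptors that read DNA letters related to those of the Rev-erb receptors. All samples were taken at a single time, so a shift in the phase of the clock and a change in its mean level cannot be told apart, and in bulk RNA neither can fewer cells of a type and less RNA per cell.

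DNA around the start is shown for the genes on which the results turn, as 300-base windows from 250 bases before to 50 after the annotated start. They are RefSeq sequences of the build GRCr8, read in the direction of the gene. Of the 10 clock genes 9 had a window, Arntl under its newer symbol Bmal1, and Cry1 had none. Clock and Nr1d1 had a pair of windows each, so that the 9 genes gave 11 windows. Capitals mark the E-box CACGTG, the related E-prime box CACGTT, the D-box TTATGTAA or TTACGTAA, and the ROR/Rev-erb element. Arntl is shown for its ROR/Rev-erb element, Nr1d1 and Per2 for E-box type letters, Npas2 because it rose, and Bhlhe40 and Bhlhe41 because these paralogs differed from CON in opposite directions.
Arntl (GRCr8 chr1:176766078-176766377, forward strand): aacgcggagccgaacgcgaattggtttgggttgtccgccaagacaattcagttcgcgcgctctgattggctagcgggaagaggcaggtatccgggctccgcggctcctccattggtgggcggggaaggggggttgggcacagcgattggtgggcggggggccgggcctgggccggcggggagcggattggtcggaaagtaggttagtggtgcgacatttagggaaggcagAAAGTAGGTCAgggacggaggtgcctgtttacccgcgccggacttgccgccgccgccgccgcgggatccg
Nr1d1, its second listed start (GRCr8 chr10:84229405-84229704, reverse strand): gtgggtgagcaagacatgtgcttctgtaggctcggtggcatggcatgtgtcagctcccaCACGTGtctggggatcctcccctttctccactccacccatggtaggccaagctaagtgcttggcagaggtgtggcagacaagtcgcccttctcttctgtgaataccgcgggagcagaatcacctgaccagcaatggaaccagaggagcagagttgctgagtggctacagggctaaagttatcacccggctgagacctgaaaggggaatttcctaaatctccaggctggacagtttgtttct
Per2 (GRCr8 chr9:99496944-99497243, reverse strand): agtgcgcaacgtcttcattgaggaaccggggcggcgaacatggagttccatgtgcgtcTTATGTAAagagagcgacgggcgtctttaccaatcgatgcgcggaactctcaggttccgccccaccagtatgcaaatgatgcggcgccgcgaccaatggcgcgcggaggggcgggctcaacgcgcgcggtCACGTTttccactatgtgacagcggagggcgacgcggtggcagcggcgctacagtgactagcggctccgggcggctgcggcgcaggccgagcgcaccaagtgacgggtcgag
Npas2 (GRCr8 chr9:48959315-48959614, forward strand): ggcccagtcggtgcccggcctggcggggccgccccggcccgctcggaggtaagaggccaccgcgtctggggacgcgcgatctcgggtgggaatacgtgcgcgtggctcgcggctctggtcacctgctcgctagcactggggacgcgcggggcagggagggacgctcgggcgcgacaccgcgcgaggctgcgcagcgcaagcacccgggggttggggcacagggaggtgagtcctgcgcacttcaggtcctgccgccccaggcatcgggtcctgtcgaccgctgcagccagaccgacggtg
Bhlhe40 (GRCr8 chr4:143174200-143174499, forward strand): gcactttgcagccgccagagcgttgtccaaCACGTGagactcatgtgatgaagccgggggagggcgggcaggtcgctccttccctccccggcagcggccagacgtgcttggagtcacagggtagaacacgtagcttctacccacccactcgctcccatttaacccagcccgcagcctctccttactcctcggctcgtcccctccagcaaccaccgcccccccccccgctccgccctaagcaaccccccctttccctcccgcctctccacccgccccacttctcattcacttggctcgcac
Bhlhe41 (GRCr8 chr4:180569306-180569605, reverse strand): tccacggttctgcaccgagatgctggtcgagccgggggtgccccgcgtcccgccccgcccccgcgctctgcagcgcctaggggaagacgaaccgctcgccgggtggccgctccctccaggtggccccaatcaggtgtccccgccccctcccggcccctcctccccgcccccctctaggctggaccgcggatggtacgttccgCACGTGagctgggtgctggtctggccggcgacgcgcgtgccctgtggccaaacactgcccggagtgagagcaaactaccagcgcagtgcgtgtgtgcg

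Searching both strands, the ROR/Rev-erb element was matched in 1 of the 11 windows, that of Arntl, from 20 bases before the start, and in 0.356% of all 33469 windows of the table. The pattern searched ends in GGTCA. The letters aaagtaggtta, which lie before the match in the same window and differ from it at 1 base, were therefore not marked. The E-box CACGTG was found in 1 of the 11 windows (the second of Nr1d1) and in 6.42% of all windows, and the E-prime box in 3 of the 11 (Cry2, the first of Nr1d1, and Per2) and in 4.83% of all. Per2 also held the D-box TTATGTAA, present in 0.893% of all windows, while TTACGTAA, in 0.12% of all, was found in 0 of the 11. The core letters of nuclear receptor sites, AGGTCA, stood in the windows of Arntl, where they lie inside the ROR/Rev-erb element, and Nr1d2, and in 16.2% of all windows. Neither spacing of retinoic acid response elements searched (DR5, in 0.382% of all windows, and DR2, in 0.17%) nor the cAMP response element TGACGTCA (1.83%) was matched in any of the 11. Both Bhlhe40 and Bhlhe41 held the E-box, and the window of Npas2 held none of the elements searched. These matches say which letters lie in a short window and nothing about binding.

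Whether RA moved the clock genes was tested with edgeR's quasi-likelihood test on the counts, fitted over all 13438 genes that passed its filter on low counts. For a DEG, the log2 fold change (log2FC, RA minus CON) had to lie beyond 0.58 in either direction with a p below 0.05 after Benjamini-Hochberg adjustment. All 10 clock genes passed the filter, with 408 to 2553 reads per gene and sample, and 0 of the 10 were DEGs, against 4.96% of all genes tested. The count was also 0 of 10 with DESeq2 and with limma on log2 FPKM, and the lowest adjusted p of the 10 was 0.174 (edgeR). At an unadjusted p below 0.05, 2 of the 10 passed, Arntl and Cry2, against 24% of all genes. The ratio of mean FPKM in RA to that in CON lay between 0.909 and 1.18 for the 10 genes. Their median log2FC was 0.065 beside -0.0057 over all genes tested, and it ran from 0.0046 without CON sample 1 to 0.13 without CON sample 3. The 95% interval of the log2FC lay inside the fold threshold for all 10 genes, as it did for 64.3% of all genes, with outer bounds of -0.34 and 0.45.

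**Figure D1:**
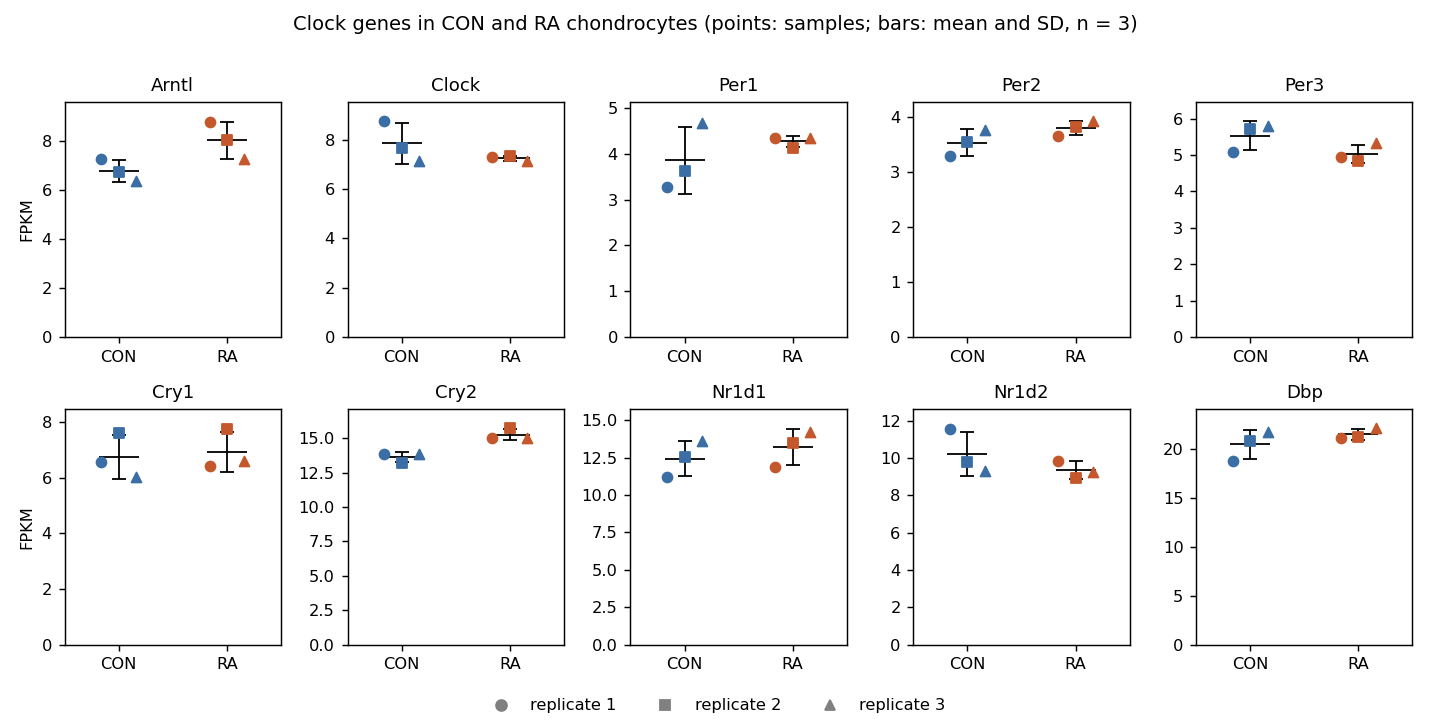
FPKM (vertical axis, from 0) of the 10 clock genes in CON (blue) and RA (orange), with 1 point per sample and the mean and SD of 3 samples. The groups overlap for every gene except Arntl and Cry2, and the mean ratios of RA to CON lie between 0.909 and 1.18.

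The activators came first in the loop. Arntl (ENSRNOG00000014448), the gene of BMAL1, stood at 7.28, 6.74 and 6.36 FPKM in CON samples 1, 2 and 3 and at 8.79, 8.05 and 7.29 FPKM in RA samples 1, 2 and 3. Every RA sample was above every CON sample, but RA sample 3 cleared CON sample 1 by only the third digit. The mean was 6.80 ± 0.463 FPKM in CON against 8.04 ± 0.75 in RA (SD, 3 samples each), with a log2FC of 0.23 with a 95% interval of 0.02 to 0.44 (adjusted p = 0.174, edgeR), which is not a DEG. Without CON sample 1 the log2FC was 0.28 (adjusted p = 0.0452, edgeR; 0.0452 to 0.412 across all alternatives), still below the fold threshold. Clock (ENSRNOG00000002175), its partner, had 8.76, 7.69 and 7.13 FPKM in CON and 7.30, 7.34 and 7.14 in RA. The RA samples lay together at the lower end of the range of CON, and the log2FC was -0.13 (95% interval -0.31 to 0.05, adjusted p = 0.374, edgeR), and -0.045 without CON sample 1.

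The Period genes, whose proteins hold back the activators, were the members with the lowest levels. Per1 (ENSRNOG00000007387), which cAMP and glucocorticoids induce quickly, had 3.28, 3.62 and 4.69 FPKM in CON and 4.35, 4.14 and 4.35 in RA. CON sample 3 was above every RA sample and the other CON samples below, so the groups overlapped, and the log2FC was 0.13 (95% interval -0.18 to 0.45, adjusted p = 0.606, edgeR). Without CON sample 3 it was 0.31 (adjusted p = 0.0992, edgeR; 0.0992 to 0.931 across all alternatives), and without CON sample 1 it was 0.021. Per2 (ENSRNOG00000020254), whose window above holds both an E-prime box and a D-box, ran at 3.29, 3.55 and 3.76 FPKM in CON and 3.66, 3.81 and 3.92 in RA. CON sample 3 lay inside the range of RA, and the log2FC was 0.09 (95% interval -0.11 to 0.28, adjusted p = 0.566, edgeR), with 0.037 without CON sample 1 and 0.15 without CON sample 3. Per3 (ENSRNOG00000018413), the paralog least needed for rhythm in mice, differed from Per1 and Per2 in sign. It stood at 5.08, 5.72 and 5.80 FPKM in CON and 4.93, 4.83 and 5.32 in RA, with a log2FC of -0.15 (95% interval -0.34 to 0.03, adjusted p = 0.302, edgeR). Its groups overlapped through CON sample 1, without which the log2FC was -0.21 (adjusted p = 0.0377, edgeR; 0.0377 to 0.588 across all alternatives).

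The Cryptochromes are the partners of the Period proteins in repression. Cry1 (ENSRNOG00000006622) had 6.56, 7.60 and 6.04 FPKM in CON and 6.43, 7.75 and 6.59 in RA, nearly the same values in both groups. Its log2FC of 0.03 (95% interval -0.23 to 0.29, adjusted p = 0.902, edgeR) was the smallest of the 10 in size, its sign changed without CON sample 3 or RA sample 2, and without CON sample 1 it was 0.01. Cry2 (ENSRNOG00000007478) had 13.8, 13.2 and 13.8 FPKM in CON and 15.0, 15.7 and 15.1 in RA. Here the groups did not overlap and the spread within groups was small, lower than in all but 6.91% of the genes tested, yet the difference was small as well, with a log2FC of 0.15 (95% interval 0.01 to 0.29, adjusted p = 0.182, edgeR), and 0.16 without CON sample 1. Groups that do not overlap were found for 2 of the 10 clock genes on TMM-scaled counts, both higher in RA, against 31.9% of all genes in either direction and 16.8% in that direction.

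The Rev-erb receptors repress Arntl, so that at any time their levels tend to run against it. Nr1d1 (ENSRNOG00000009329) had 11.2, 12.5 and 13.6 FPKM in CON and 11.9, 13.5 and 14.2 in RA, with wide overlap. The log2FC was 0.07 (95% interval -0.16 to 0.31, adjusted p = 0.708, edgeR) and -0.00080 without CON sample 1. Nr1d2 (ENSRNOG00000046912) had 11.5, 9.78 and 9.31 FPKM in CON and 9.86, 8.94 and 9.22 in RA, with a log2FC of -0.14 (95% interval -0.34 to 0.06, adjusted p = 0.375, edgeR), and -0.047 without CON sample 1. CON sample 1 was the sample that stood highest for Nr1d2, and lowest for Nr1d1 and Per1. Dbp (ENSRNOG00000021027), the output gene with the highest level of the 10, was at 18.8, 20.9 and 21.8 FPKM in CON and 21.2, 21.2 and 22.2 in RA. Its log2FC was 0.06 (95% interval -0.12 to 0.23, adjusted p = 0.697, edgeR), and -0.0041 without CON sample 1.

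FPKM is scaled by gene length, so the levels of the 10 genes can be set in order. In CON, Dbp (mean 20.5 FPKM) stood above Cry2 (13.6), and Cry2 could not be separated from Nr1d1 (12.4) nor Nr1d1 from Nr1d2 (10.2), whose sample ranges overlapped. Clock (7.86), Arntl (6.80) and Cry1 (6.74) followed as neighbours with overlapping ranges. Per3 (5.53) was below them, and Per1 (3.86) and Per2 (3.53) overlapped at the bottom. In RA the order was the same but for Arntl (8.04) and Clock (7.26), which changed places and still overlapped, while neighbours among Cry2, Nr1d1 and Nr1d2, and Per1 and Per2, no longer overlapped.

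A ratio of members within 1 sample does not depend on the scaling between samples, and the ratio of genes of the E-box wave to Arntl sets the repressed arm of the loop against its activator. The log2 of the Nr1d1 to Arntl ratio of FPKM was 0.62, 0.89 and 1.09 in CON samples 1, 2 and 3 and 0.43, 0.74 and 0.96 in RA samples 1, 2 and 3. The distance between samples of the same group was thus larger than the distance between the group means, which was -0.15. For Dbp over Arntl the log2 ratio was 1.37, 1.63 and 1.78 in CON and 1.27, 1.40 and 1.60 in RA, a difference of means of -0.17. For Per2 over Arntl the difference was -0.14, for Per1 over Arntl -0.077, and for Per3 over Arntl -0.38, the widest, and in each case the groups overlapped. Set by number, each RA sample lay below the CON sample of its number for Nr1d1, Dbp, Per2 and Per3 over Arntl. For Per1 over Arntl, RA sample 1 (-1.01) lay above CON sample 1 (-1.15), and RA lay below CON at the other numbers. Samples of a number are not said to belong together, so this is a description only. All 5 ratios share Arntl, whose own difference enters each of them. In both groups the sample numbered 1 had the highest Arntl and the lowest Nr1d1 and Per2, while Nr1d2, the other Rev-erb gene, was at its highest in that sample too. The ratio of the cryptochromes (Cry1 over Cry2) differed by -0.12 on the log2 scale and that of the Rev-erb genes (Nr1d1 over Nr1d2) by 0.21, both with overlap.

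**Figure D2:**
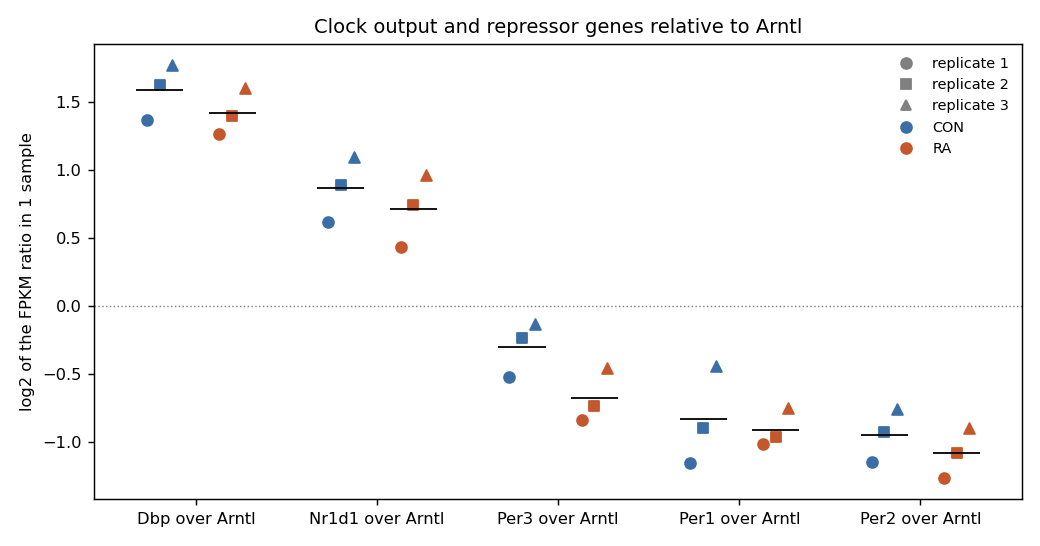
log2 of the FPKM ratio of Dbp, Nr1d1, Per3, Per1 and Per2 to Arntl within each sample (vertical axis), CON in blue and RA in orange, with the symbol giving the replicate number and a line at the group mean. The groups overlap for all 5 ratios, and for Nr1d1 over Arntl the samples of CON run from 0.62 to 1.09 while the group means differ by -0.15.

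The spread of the clock genes between samples of a group was no wider than is usual in these data. The SD of log2(CPM + 1) within groups had a median of 0.102 over the 10 genes and 0.127 over all genes tested, and 3 of the 10 were above the latter. Per1 varied the most, wider than 76.9% of all genes, and this spread lay in CON, where its coefficient of variation in FPKM was 19%, against 2.87% in RA. Standard errors of the log2FC values ran from 0.0615 (Cry2) to 0.138 (Per1).

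Outside the 10, a wider list of clock genes was followed by role. It held 29 genes, of which 28 were in the tables and 26 passed the filter. In all 1 of the 26 was a DEG, against 4.96% of all genes, and with the adjusted p alone 5 of the 26 passed, 3 higher and 2 lower in RA, against 9.82% of all genes, 5.31% higher and 4.5% lower. The DEG was Npas2 (ENSRNOG00000013408), the paralog of Clock that can take its place beside BMAL1. It stood at 4.51, 4.42 and 4.91 FPKM in CON and at 6.98, 7.31 and 7.34 in RA, with a wide gap between the groups. Npas2 rose with a log2FC of 0.63 (standard error 0.0782, 95% interval 0.45 to 0.81, adjusted p = 0.00165, edgeR) and stayed a DEG whichever of the 6 samples was left out. It lies close to the fold threshold, and on log2(FPKM + 1), which shrinks differences of low genes, its value was 0.55. In FPKM, the ratio of Npas2 to Clock was 0.515, 0.575 and 0.689 in CON and 0.956, 0.997 and 1.03 in RA, a ratio looked at after both genes' values were seen. Among the other activator paralogs and ROR receptors, Arntl2 (log2FC 0.30) and Rora (-0.04) were not DEGs, and Rorb had at most 4 reads in a sample.

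The E-box repressors and their partners held no DEG among 5 genes with edgeR, DESeq2 or limma, against 4.96% of all genes (edgeR), but 3 of the 5 passed the adjusted p alone, against 9.82% of all genes. Bhlhe40 (ENSRNOG00000007152), which encodes the repressor DEC1 that competes for E-boxes, had 20.0, 21.2 and 21.9 FPKM in CON and 28.1, 27.0 and 26.4 in RA, a log2FC of 0.36 (95% interval 0.21 to 0.51, adjusted p = 0.0111, edgeR). Its paralog Bhlhe41 (ENSRNOG00000048961, DEC2), named after its values were seen like Timeless, had 25.8, 22.4 and 25.5 FPKM in CON and 17.9, 18.0 and 19.2 in RA. Its log2FC was -0.43 (95% interval -0.63 to -0.24, adjusted p = 0.0143, edgeR). The paralogs thus differed in sign, with no overlap of the groups in either gene, and Bhlhe40 was below Bhlhe41 in every CON sample and above it in every RA sample. The adjusted p of Bhlhe40 exceeded 0.05 without CON sample 2 or any 1 of the RA samples, up to 0.0616, and that of Bhlhe41 without any 1 of the RA samples, up to 0.082 (edgeR). Timeless, better known for its part at the replication fork, had a log2FC of 0.27 (95% interval 0.12 to 0.41, adjusted p = 0.0374, edgeR). Its adjusted p exceeded 0.05 without CON sample 2, CON sample 3 or any 1 of the RA samples, up to 0.151, and with limma (0.0691 and 0.0726).

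**Figure D3:**
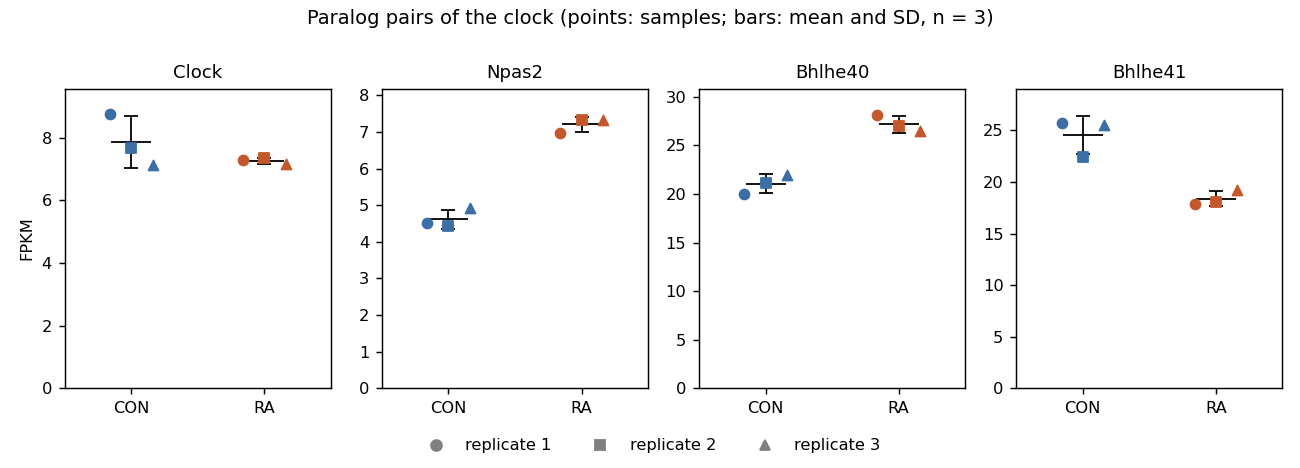
FPKM (vertical axis, from 0) of the paralogs Clock and Npas2 and the paralogs Bhlhe40 and Bhlhe41 in CON and RA, with 1 point per sample and the mean and SD of 3 samples. Npas2 is higher in all 3 RA samples (6.98 to 7.34) than in CON (4.42 to 4.91), and Bhlhe40 and Bhlhe41 differ in opposite directions.

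In the other groups of the wider list no gene was a DEG with edgeR, Hlf did not pass the filter, and Sirt1 was not analysed here. Of the output genes, Nampt (ENSRNOG00000009754), the enzyme of NAD salvage, had 36.5, 32.0 and 28.9 FPKM in CON and 26.6, 24.5 and 25.2 in RA. Its log2FC was -0.37 (95% interval -0.56 to -0.17, adjusted p = 0.032, edgeR), short of the fold threshold, and the adjusted p exceeded 0.05 without CON sample 2 or any 1 of the RA samples, up to 0.145, and with limma (0.0597 and 0.0618). Fbxl21, a ubiquitin ligase for cryptochromes, had low levels, 0.625 ± 0.0973 FPKM in CON against 0.999 ± 0.129 in RA (SD, n = 3 each). Its log2FC of 0.66 had an adjusted p of 0.0573 (edgeR), and it passed as a DEG when CON sample 1 was left out, at 0.78 (adjusted p = 0.0144), and with DESeq2 (adjusted p = 0.0246), over a range of 0.0144 to 0.222 in all alternatives. The 6 kinases, enzymes that phosphorylate clock proteins, lay between -0.076 and 0.11 on the log2 scale, and the smallest p among them was that of Csnk1d (log2FC 0.09, adjusted p = 0.326, edgeR). Nfil3, a repressor at D-boxes, had a log2FC of -0.14 (adjusted p = 0.585, edgeR), and -0.0024 without CON sample 2. That of Hdac3, a corepressor of the Rev-erb receptors, was 0.13 (adjusted p = 0.294, edgeR).

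**Figure D4:**
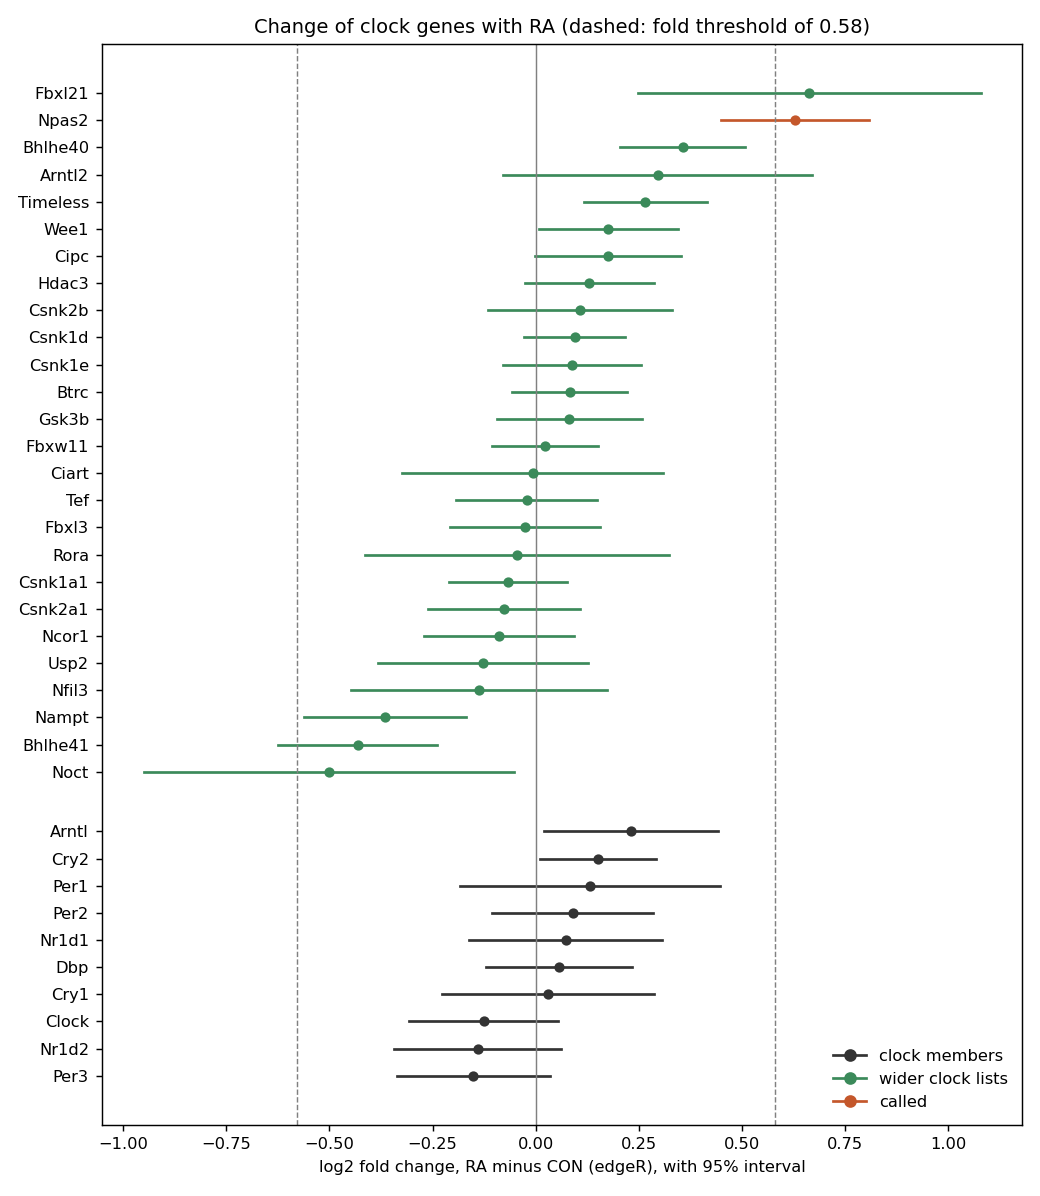
log2FC, RA minus CON (horizontal axis), of the 10 clock genes (black) and the 26 tested genes of the wider list (green), with 95% intervals from edgeR and dashed lines at the fold threshold of 0.58. All 10 black intervals lie between the dashed lines, and Npas2 (orange) is the DEG.

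Signals that reach Per1 from outside were described by a pair of further lists. Of 8 glucocorticoid response genes 0 were DEGs with edgeR, DESeq2 or limma, against 4.96% of all genes (edgeR). An unadjusted p below 0.05 was passed by 6 of them (edgeR), 4 of which were higher in RA, against 24% of all genes. The lower genes were Tsc22d3 (log2FC -0.18, adjusted p = 0.159, edgeR) and Klf9 (-0.17, adjusted p = 0.184, edgeR). Their groups did not overlap, and both were named after their values were seen. With the adjusted p alone 3 passed, all higher in RA, against 5.31% of all genes in that direction. They were Dusp1, a phosphatase of MAP kinases (log2FC 0.51, adjusted p = 0.00182, edgeR), and Sgk1 and Errfi1 (0.51 and 0.39), the last 2 named after their values were seen. Of 8 genes of the immediate response to cAMP and serum, 1 was a DEG, higher in RA, against 2.67% of all genes in that direction, and a single gene of 8 says little about the list. This was Sik1, a kinase that restrains CREB-driven transcription, whose level rose by a log2FC of 0.83 (adjusted p = 0.0129, edgeR), with means of 1.84 ± 0.377 FPKM for CON and 3.32 ± 0.302 for RA (SD, 3 samples each). Sik1 lost the call without RA sample 1 (0.84, adjusted p = 0.0551, edgeR) or RA sample 3 (0.76, adjusted p = 0.0677, edgeR; 1.51e-05 to 0.0677 across all alternatives). Egr1 (log2FC 0.50, adjusted p = 0.0157, edgeR), named after its values were seen, passed the adjusted p alone. It was a DEG without CON sample 3 (0.60), but its adjusted p exceeded 0.05 without CON sample 2 or any 1 of the RA samples, up to 0.0753 (edgeR). At an unadjusted p below 0.05, 3 of the 8 were higher and 1 was lower in RA, against 24% of all genes in either direction. The lower gene was Nr4a2 (log2FC -0.38, adjusted p = 0.124, edgeR), and Fos and Crem had values of -0.18 and -0.21 with overlapping groups, all 3 named after their values were seen.

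Against the clock genes, the retinoid response itself was plain in the same samples. Of 7 genes known to respond to retinoids 5 were DEGs with edgeR and with DESeq2 (Cyp26a1, Cyp26b1, Rarb, Dhrs3 and Tgm2), all higher in RA, with a median log2FC of 0.91 over the 7, against 2.67% of all genes in that direction. With limma there were 4 on log2(FPKM + 0.1), without Rarb, and 3 on log2(FPKM + 1), without Rarb and Tgm2. Markers of endothelium were near 0. The summed FPKM of 5 endothelial markers was 0.064 to 0.214 in CON and 0.0847 to 0.179 in RA, with Emcn at 0 in every sample. For 7 macrophage markers the sum was 13.2 to 14.8 in CON and 16.1 to 17.5 in RA, most of it Cd14, with Ptprc and Adgre1 at or near 0. For 4 skeletal muscle markers it was 4.71 to 6.00 in CON and 6.96 to 7.87 in RA, most of it Des, and Myod1, at 0.0681 to 0.432 FPKM, was a DEG with edgeR but not with limma on log2(FPKM + 1). For 5 markers of fibroblasts and perichondrium it was 497 to 523 in CON and 551 to 585 in RA, with 0 DEGs by edgeR, DESeq2 or limma and 3 genes at an unadjusted p below 0.05 (edgeR), against 24% of all genes. Of these 3, Pdgfra was higher and passed the adjusted p (log2FC 0.44, adjusted p = 0.00155, edgeR), Pi16 was higher (0.39), and Dpt was lower (-0.73). The chondrocyte, macrophage, muscle and fibroblast sums therefore moved with the group, and their part in the values of the clock genes was not tested.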

How the data were processed

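Poly(A) RNA of 3 CON and 3 RA samples was sequenced on an Illumina HiSeq instrument. Per the labels, the submitters' processing notes name HISAT2, HTSeq 0.13.5 and the build Rnor_6.0, and the strand setting and gene annotation are not given in the sources used here. Each deposited table holds the read count of every gene and the FPKM the authors made from it, which was scaled by gene length and by the sample's total only. Because the strand setting is not given, how reads of overlapping or antisense genes were counted is not known, and counts of such genes may be affected.

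Samples were grouped by their labels. Counts were fitted with edgeR 4.0.16 (quasi-likelihood test, TMM scaling, filterByExpr with a minimum count of 10) under R 4.3.3, over all 13438 genes that passed of 18923, with Benjamini-Hochberg adjustment over all of them. DEGs had a log2 fold change beyond 0.58 in size at an adjusted p below 0.05. The standard error came from the F statistic, and the 95% intervals are per gene and not adjusted. FPKM values are given per sample as levels. The script was tested on simulated data. Alternatives were other scalings, filters, DESeq2 1.42.0, limma 3.58.1 on log2(FPKM + 0.1) or log2(FPKM + 1), the replicate number as a block, each sample left out, and other thresholds. The members and all gene lists were chosen with earlier results of these data known, so no list was tested as a set. Some genes of these lists are not reported here. The genes named were the 10 members, the DEGs of the wider clock, glucocorticoid and cAMP and serum lists or, where a list had none, its gene with the smallest p, the DEGs of the retinoid and marker lists, and the 5 genes most like Dbp and most like Arntl. Every other gene named, whether the text says so beside it or not (Arntl2, Rora, Rorb and Hlf of the wider list, and of the marker lists Sox9, Cd14, Ptprc, Adgre1, Des, Emcn, Pdgfra, Pi16 and Dpt), was named after its values were seen. Motifs were searched as exact letters on both strands of RefSeq windows of GRCr8.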

Additional observations from a re-analysis of the deposited data

How the results depend on the processing

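The count of clock genes that were DEGs was 0 of 10 under every alternative run, and the 2 of 140 alternative values with an adjusted p below 0.05 (Arntl and Per3, both without CON sample 1) stayed below the fold threshold. The sign turned for Cry1 (-0.04 without CON sample 3 and -0.063 without RA sample 2, in a range of -0.063 to 0.12 with 1 sample left out), Nr1d1 (-0.00080 without CON sample 1, up to 0.15 without CON sample 3) and Dbp (-0.0041 without CON sample 1, up to 0.11 without CON sample 3). The median log2 fold change of the 10 genes ran from 0.0046 to 0.13 when 1 sample was left out. Of the wider list, the number of DEGs was 2 with DESeq2 and 0 with limma on log2(FPKM + 1), where adding 1 shrinks differences of low genes, and 1 to 2 when 1 sample was left out (2 without CON sample 1). It was 5 with the adjusted p alone and 2 with an unadjusted p and the fold threshold. Among all genes there were 667 DEGs, 434 with limma on log2(FPKM + 1), 1319 with the adjusted p alone, 1017 with the unadjusted p and the fold threshold, and 480 to 755 when 1 sample was left out.

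With the replicate number as a block, 684 genes were DEGs, 0 of the 10 clock genes and 1 of the wider list, and the median log2 fold change of the 10 was 0.067. Over all genes the deviations of same-numbered samples from their group means correlated at 0.20, -0.0095 and 0.072. CON samples 2 and 3 correlated best with an RA sample of another number. Some clock genes went with the number and others did not. On log2(CPM + 1), Nr1d1 deviated by -0.15, 0.0025 and 0.15 in CON samples 1, 2 and 3, and by -0.15, 0.040 and 0.11 in RA. Cry2 deviated by 0.016, -0.055 and 0.039 in CON and by -0.033, 0.048 and -0.015 in RA. Whether samples of the same number were prepared together is not stated, and these values cannot decide it. With 3 samples a group, a single time point and no record here of serum changes or the time of day, these data cannot resolve phase.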

Other observations

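The genes whose log2(CPM + 1) ran most closely with that of a clock gene over the 6 samples are given as a description, since the 6 points share libraries and groups and 11341 genes were compared. For Dbp they were Cog8 (Pearson r = 0.998), Rbms2 (0.995), Cic (0.993), R3hdm4 (0.992) and Dapk3 (0.992). For Arntl they were Sytl4 (0.994), Soat1 (0.989), Xpr1 (0.981), Klf6 (0.978) and Prkar2a (0.978). None of these 10 genes was a DEG with edgeR, and their log2 fold changes lay between 0.058 and 0.46. No gene was on both lists.

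The ratio of Bhlhe40 to Bhlhe41 in FPKM, looked at after the values of both were seen, was 0.775, 0.945 and 0.860 in CON samples 1, 2 and 3 and 1.57, 1.50 and 1.38 in RA samples 1, 2 and 3. The group means differed by 0.79 on the log2 scale, and the groups did not overlap. The ratio of Npas2 to Clock differed by 0.75 on the same scale. Both ratios join paralogs that bind the same partner or the same DNA letters, and the levels of the proteins were not measured.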
